A study of Mus musculus with 11 samples.

Results

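Of the 24421 genes counted in mouse hippocampus in this study, 10 were chosen by name as genes of brain endothelial cells and the blood-brain barrier, and all 10 were found in each of the 11 libraries. They were Cldn5, Cdh5 and Pecam1 of the junctions and cell surface, the growth factor receptor genes Flt1, Kdr and Tek, the transporter genes Slco1a4 and Abcb1a, and the surface marker genes Ly6c1 and Itm2a. The study measured RNA from whole hippocampus in the offspring of mothers dosed through the nose during pregnancy. The PM group (6 libraries) came from mothers given particulate matter at 200 µg per kg, and the Vehicle group (5 libraries) came from mothers given normal saline. Per the labels, dosing fell on gestational days 9, 12 and 15, birth on day 21, and tissue was taken at 14 to 18 weeks of age. The labels give neither the source of the particles nor the strain or sex of the offspring, and do not say whether each library is a separate animal or litter. The p-values therefore measure the spread between libraries, part of which may be technical. Libraries were deposited in 2 sets. PM replicates 4 to 6 and Vehicle replicates 4 and 5 form the second set, and replicates 1 to 3 of both groups form the first.

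Endothelial cells line every brain vessel and are joined by tight junctions that close the gap between them. Together with efflux pumps and selective carriers in the same cells, and with pericytes and astrocyte endfeet around them, these junctions make up the blood-brain barrier. Vascular endothelial growth factor (VEGF) and angiopoietin receptors on these cells govern vessel growth and stability, and Wnt ligands from the neural tissue maintain the barrier program. In bulk tissue, fewer endothelial cells and less RNA per endothelial cell cannot be told apart. Nor do bulk counts show which cell type a gene's RNA came from. This applies as well to the junction, co-receptor, transporter and Wnt genes listed below, such as Tjp1, Nrp2, Bsg and Lrp6.

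Promoter windows of 4 members are shown, chosen by log2 fold change of PM over Vehicle across all libraries. Among the members, Cldn5 and Itm2a had the highest values and Flt1 and Kdr the lowest. This order did not hold once a trend with transcript length and GC content was removed, with Flt1 at 0.37 and Kdr at 0.35. The windows come from RefSeq on build GRCm38.p6, each span 300 bases over the gene's start and mostly before it, are read on the gene's own strand, and have in capitals each GGAA, the core of sites bound by ETS factors, a family with major endothelial members, or its reverse complement TTCC. The windows lie at chr16:18776597-18776896 on the plus strand for Cldn5, chrX:107403311-107403610 on the minus strand for Itm2a, chr5:147725962-147726261 on the minus strand for Flt1 and chr5:75978406-75978705 on the minus strand for Kdr.
Cldn5: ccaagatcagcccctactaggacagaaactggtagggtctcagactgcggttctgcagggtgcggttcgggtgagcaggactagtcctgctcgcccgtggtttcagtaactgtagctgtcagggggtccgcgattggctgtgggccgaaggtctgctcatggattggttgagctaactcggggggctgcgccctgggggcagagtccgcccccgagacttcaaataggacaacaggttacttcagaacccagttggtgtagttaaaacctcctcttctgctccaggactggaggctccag
Itm2a: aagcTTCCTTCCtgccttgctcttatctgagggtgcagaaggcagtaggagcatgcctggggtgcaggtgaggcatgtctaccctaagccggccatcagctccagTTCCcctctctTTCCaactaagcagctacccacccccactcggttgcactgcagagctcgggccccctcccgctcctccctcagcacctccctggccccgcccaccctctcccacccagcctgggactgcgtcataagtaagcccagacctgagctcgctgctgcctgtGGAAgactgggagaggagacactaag
Flt1: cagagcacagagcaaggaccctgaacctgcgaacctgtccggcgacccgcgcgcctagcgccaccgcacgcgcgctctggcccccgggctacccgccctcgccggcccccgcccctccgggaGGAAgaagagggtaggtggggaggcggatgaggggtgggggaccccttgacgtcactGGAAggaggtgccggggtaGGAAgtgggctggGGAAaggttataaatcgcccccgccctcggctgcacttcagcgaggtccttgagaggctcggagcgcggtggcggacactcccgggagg
Kdr: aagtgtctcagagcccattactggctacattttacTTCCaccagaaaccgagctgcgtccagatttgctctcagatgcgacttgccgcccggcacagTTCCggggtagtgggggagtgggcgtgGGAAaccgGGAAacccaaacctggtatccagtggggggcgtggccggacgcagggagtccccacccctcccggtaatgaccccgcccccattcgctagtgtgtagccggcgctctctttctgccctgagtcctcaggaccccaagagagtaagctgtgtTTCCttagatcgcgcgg
The Cldn5 window held 0 matches to GGAA on either strand, against 5 in Itm2a, 4 in Flt1 and 5 in Kdr. The motif was present in 95.9% of the 27025 promoter windows of this length with a median of 3 matches. A longer form, CCGGAA, which contains GGAA, was found in 1 place in the Kdr window and in 15.2% of all windows. Windows for 8 of the 10 members were in the table, and Pecam1 and Cdh5 were not. A match describes letters in this window only.

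Between groups, 5 of the 10 members were higher in PM libraries, 0 were lower and 5 did not pass (edgeR quasi-likelihood test, Benjamini-Hochberg adjusted p under 0.05 over 14982 genes, deposit set as covariate). The members higher in PM were Cldn5, Itm2a, Ly6c1, Slco1a4 and, by a small margin, Pecam1. Across all tested genes 32.7% were higher in PM, 36.4% lower and 69.1% called in either direction (37.0% higher and 27.2% lower once a trend with transcript length and GC content was removed), so a count of 5 in 10 has to be read against calls in most of the transcriptome. The median log2 fold change of the members was 0.26, against -0.04 for all tested genes. PM and Vehicle libraries did not overlap in 4 members, all of them higher in PM, against 24.3% of all tested genes that were higher and 28.1% that were lower without overlap. The plot of values by library shows these 4 genes apart from the other members.

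**Figure D1:**
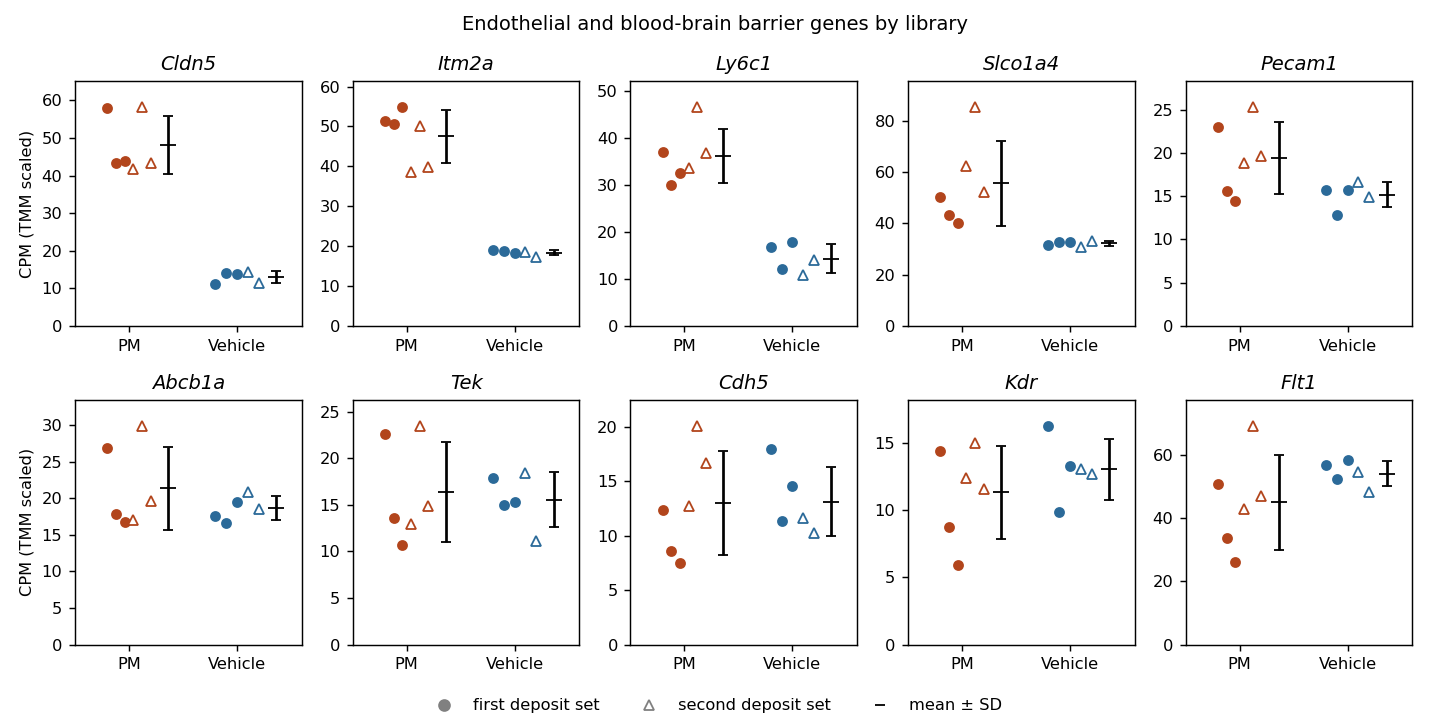
CPM (counts scaled to library size, axis from 0) of the 10 members in each library, PM left and Vehicle right, with first-set libraries as filled circles, second-set libraries as open triangles and bars for the mean ± SD. Cldn5, Itm2a, Ly6c1 and Slco1a4 show no overlap of the groups, while the groups overlap in Pecam1, Abcb1a, Tek, Cdh5, Flt1 and Kdr.

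Sequencing depth and the assigned share of reads differed between the groups. Counts assigned to genes ran from 10938521 to 17763893 per PM library and from 6012116 to 12496651 per Vehicle library. Counts assigned to no feature made up 18.8% to 34.0% in PM libraries and 60.9% to 62.0% in Vehicle libraries. The groups did not overlap in this share in either deposit set. Its part in the results therefore cannot be told apart from that of PM in these libraries, and was not tested. Xist counts with at most 1 count of the Y-linked gene Ddx3y marked PM replicates 3 and 6 and both second-set Vehicle libraries, and PM replicate 1 had counts of both genes. Globin genes Hba-a1, Hba-a2, Hbb-bs and Hbb-bt had 0 counts in every library. Whether reads of these genes could be counted is not known, so this gives no measure of blood in the tissue.

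The junction and adhesion genes differed unequally between the groups. Cldn5 (chr16:18776847-18778262, build GRCm38, plus strand) encodes the main claudin of brain endothelial tight junctions. In CPM, counts scaled to library size by edgeR's TMM method, it had 41.7 at the lowest, 43.7 at the median and 58.2 at the highest in PM libraries, against 11.2, 14.2, 13.7, 14.4 and 11.5 CPM in Vehicle replicates 1 to 5. Every PM library was above every Vehicle library. Cldn5 averaged 48.1 ± 7.74 CPM in PM and 13.02 ± 1.51 CPM in Vehicle (SD, n = 6 and 5), a fold of 3.71 (log2 fold change 1.89, SE 0.13, edgeR adjusted p = 3.626e-08). These values rest on 491 to 952 counts per PM library and 88 to 157 per Vehicle library.

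Cdh5 (chr8:104101625-104144511, plus strand) encodes VE-cadherin, the adhesion protein of endothelial adherens junctions. Its levels ran from 7.52 CPM through a median of 12.5 to 20.1 CPM in PM libraries, against 18.0, 11.3, 14.6, 11.6 and 10.2 CPM in Vehicle libraries. The groups overlapped, and the range was wider in PM. The log2 fold change was -0.11 (SE 0.24, edgeR adjusted p = 0.6946). In the fit over all libraries Cdh5 was nonetheless the member called as differing between deposit sets. Its log2 fold change was -0.62 (SE 0.21, adjusted p = 0.01754) in the first set and 0.60 (SE 0.26, adjusted p = 0.05186) in set 2. The difference of 1.22 (SE 0.33) had an adjusted p of 0.01374, but 0.08607 with Vehicle replicate 5 left out. Fitted on set 2 alone, Cdh5 was higher in PM, at 0.61 (adjusted p = 0.02016). All first-set Vehicle libraries had Y-linked counts and neither second-set Vehicle library did, so in the Vehicle group set and sex cannot be told apart. Differences between sets were called for 29.6% of all tested genes.

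Pecam1 (chr11:106654217-106750628, minus strand) encodes an adhesion molecule of endothelial cells, platelets and leukocytes. Levels of Pecam1 in PM libraries were 14.5 CPM at the lowest, 19.2 at the median and 25.3 at the highest, against 15.7, 12.9, 15.7, 16.7 and 14.9 CPM in Vehicle libraries. The lower PM libraries lay within the Vehicle range. The mean was 19.4 ± 4.16 CPM in PM and 15.2 ± 1.44 CPM in Vehicle, with a log2 fold change of 0.33 (SE 0.14, edgeR adjusted p = 0.04757). This call was lost without any one of PM replicates 1 and 5 and Vehicle replicates 1, 2, 4 and 5, with log2 fold changes of 0.22 to 0.40 over the libraries left out in turn.

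None of the 3 receptor genes passed the test over all libraries. Flt1 (chr5:147561604-147726011, minus strand) encodes a VEGF receptor that limits the ligand's access to the main signalling receptor. It ranged from 26.0 CPM through a median of 44.96 to 69.2 CPM in PM libraries, against 56.9, 52.3, 58.3, 54.6 and 48.2 CPM in Vehicle libraries. The PM range extended past the Vehicle range at both ends. Flt1 averaged 44.95 ± 14.96 CPM in PM and 54.1 ± 3.97 CPM in Vehicle (log2 fold change -0.32, SE 0.19, edgeR adjusted p = 0.1462). In the first set it was lower in PM (log2 fold change -0.60, adjusted p = 0.03354), and in the second set the value was 0.05 (adjusted p = 0.8757). The difference between sets, 0.65, did not pass (SE 0.34, adjusted p = 0.1827).

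Kdr (chr5:75932827-75978458, minus strand) encodes the main signalling receptor for VEGF on endothelial cells. Its levels ran from 5.95 CPM through a median of 12.0 to 15.0 CPM in PM libraries, against 16.3, 9.87, 13.3, 13.1 and 12.7 CPM in Vehicle libraries. PM replicates 2 and 3 lay below every Vehicle library and Vehicle replicate 1 above every PM library, while the other libraries overlapped, with a log2 fold change of -0.24 (SE 0.21, edgeR adjusted p = 0.317).

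Tek (chr4:94739289-94874976, plus strand) encodes the angiopoietin receptor of endothelial cells. In PM libraries it ran from 10.7 CPM through a median of 14.2 to 23.5 CPM, against 17.9, 15.0, 15.4, 18.5 and 11.1 CPM in Vehicle libraries. The ranges overlapped, and the log2 fold change was 0.08 (SE 0.22, edgeR adjusted p = 0.7653).

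The 2 transporter genes differed in their calls. Slco1a4 (chr6:141805440-141856199, minus strand) encodes an organic anion transporter of mouse brain endothelium. Levels were 40.3 CPM at the lowest, 51.2 at the median and 85.3 at the highest in PM libraries, against 31.7, 32.9, 32.6, 30.9 and 33.1 CPM in Vehicle libraries. The Vehicle libraries were close together, and each PM library was above them. Slco1a4 averaged 55.6 ± 16.5 CPM in PM and 32.2 ± 0.932 CPM in Vehicle, a fold of 1.65 (log2 fold change 0.72, SE 0.14, edgeR adjusted p = 0.0005784). By set, the log2 fold change was 0.46 (adjusted p = 0.01005) in the first and 1.06 (adjusted p = 6.052e-05) in the second, a difference of 0.60 that did not pass (SE 0.22, adjusted p = 0.05681).

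Abcb1a (chr5:8660077-8748575, plus strand) encodes P-glycoprotein, the efflux pump that returns drugs and lipophilic toxins to the blood. It had 16.8 CPM at the lowest, 18.7 at the median and 29.9 at the highest in PM libraries, against 17.6, 16.7, 19.5, 20.9 and 18.6 CPM in Vehicle libraries. The groups overlapped, and the log2 fold change was 0.19 (SE 0.16, edgeR adjusted p = 0.3174). Its paralog Abcb1b, which shares sequence with it and may share reads, averaged 5.86 ± 1.10 CPM in PM and 6.40 ± 0.731 CPM in Vehicle (log2 fold change -0.17, adjusted p = 0.2379). With Abcb1a and Abcb1b summed, the log2 fold change was 0.10 (edgeR adjusted p = 0.4962).

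Ly6c1 and Itm2a were both higher in PM. Ly6c1 (chr15:75044018-75048830, minus strand) encodes a lipid-anchored surface antigen of mouse endothelial cells and some leukocytes. It ran from 30.1 CPM through a median of 35.2 to 46.6 CPM in PM libraries, against 16.9, 12.1, 18.0, 10.95 and 14.0 CPM in Vehicle libraries. The groups were apart, with means of 36.1 ± 5.77 CPM in PM and 14.4 ± 3.01 CPM in Vehicle, a fold of 2.48 (log2 fold change 1.31, SE 0.15, edgeR adjusted p = 4.27e-06). The near-identical copy Ly6c2 had 6 counts over all PM libraries and 4 over all Vehicle libraries, against 3082 and 740 for Ly6c1. With so few Ly6c2 counts, summing the copies could hardly move the log2 fold change, which was again 1.31. The sum says nothing about reads assigned to neither copy.

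Itm2a (chrX:107397099-107403376, minus strand) encodes a type II membrane protein enriched in brain endothelium. Its levels ran from 38.6 CPM through a median of 50.4 to 54.8 CPM in PM libraries, against 19.2, 18.8, 18.3, 18.5 and 17.4 CPM in Vehicle libraries. Every PM library was above every Vehicle library, and the Vehicle libraries with and without Y-linked counts lay close together. Itm2a averaged 47.6 ± 6.65 CPM in PM and 18.4 ± 0.683 CPM in Vehicle, a fold of 2.61 (log2 fold change 1.39, SE 0.09, edgeR adjusted p = 3.076e-08).

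Cldn5, Itm2a and Ly6c1 were higher in PM within each deposit set. Cldn5 had log2 fold changes of 1.89 (adjusted p = 3.497e-08) in set 1 and 1.898 (adjusted p = 4.982e-07) in set 2. Itm2a gave 1.48 (adjusted p = 5.987e-09) in set 1 and 1.26 (adjusted p = 4.944e-07) in set 2. Ly6c1 gave 1.08 (adjusted p = 1.197e-05) in set 1 and 1.63 (adjusted p = 2.112e-06) in set 2, a difference of 0.55 that did not pass (SE 0.25, adjusted p = 0.1092). In set 1, 4 members were higher and 2 lower, against 32.1% and 38.9% of all tested genes, 71.0% in either direction. In set 2, 4 were higher and 0 lower, against 32.3% and 32.5%, 64.8% in either direction. The plot of effects places the sets side by side for each member.

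**Figure D2:**
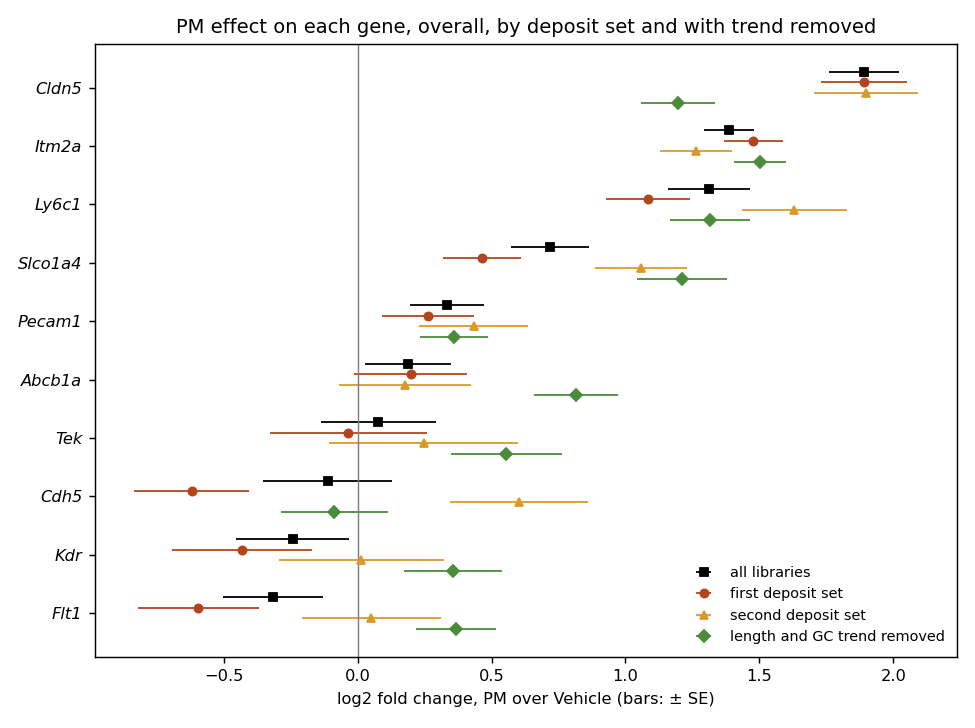
Log2 fold change of PM over Vehicle for each member (points, bars ± SE) in all libraries, in the first and second deposit sets, and after a trend with transcript length and GC content was removed. Cldn5, Itm2a and Ly6c1 stay above 1 in every version, while Cdh5 is at -0.62 in set 1 and 0.60 in set 2.

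Among the members, longer transcripts went with lower fold changes. Cldn5 (1416 bases in its longest annotated transcript), Itm2a (1744) and Ly6c1 (844) were the shortest and had the 3 largest fold changes, while Flt1 (6895) and Kdr (5924) were the longest and had the lowest. Spearman's rho between length and log2 fold change was -0.903 over the 10 members and -0.468 over 14424 genes measured in the same libraries. Among all genes the median log2 fold change was 0.59 in the shortest and -0.85 in the longest of 5 equal bins of length. Each of the 10 members lay above the median of its own bin, Flt1 and Kdr included at -0.32 and -0.24. The plot against length shows the members on this background.

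**Figure D3:**
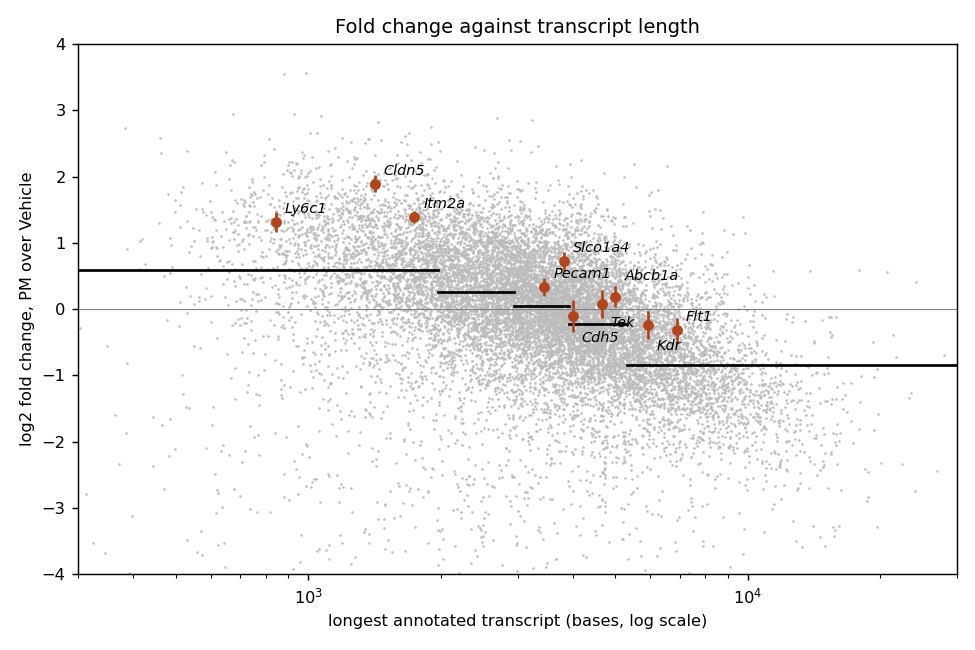
Log2 fold change of PM over Vehicle against the length of the longest annotated transcript (bases, log scale) for all tested genes with a length, with the 10 members marked; 193 of 14424 genes lie outside the axes. Members fall along the downward drift of all genes and above its middle.

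With the trend of fold change on length and GC content removed, 8 members were higher in PM and 0 lower, against 37.0% and 27.2% of 14424 genes, 64.3% in either direction. The members' median was 0.68, against 0.09 for all genes, a shift of the median of all genes by 0.13. Cldn5 then had a log2 fold change of 1.20 (adjusted p = 4.671e-06), Slco1a4 1.21 (2.728e-05), Ly6c1 1.31 (4.156e-06) and Itm2a 1.504 (3.006e-08). Flt1, at 0.37 (0.04653), Tek, at 0.55 (0.03069), and Abcb1a, at 0.81 (0.000458), joined Pecam1, at 0.36 (0.0244), as higher in PM. Kdr, at 0.35 (0.1036), and Cdh5, at -0.09 (0.718), did not pass. For Flt1 and Kdr the sign of the estimate thus depended on the trend, and no direction is given for them over all libraries.

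Levels per kilobase of transcript allow members to be ranked. In PM libraries Ly6c1 was highest with 42.8 ± 6.84 CPM per kb (17.04 ± 3.56 in Vehicle), and Cldn5 followed with 33.9 ± 5.47 (9.20 ± 1.07 in Vehicle). Itm2a had 27.3 ± 3.81 CPM per kb in PM and 10.6 ± 0.392 in Vehicle. Slco1a4 had 14.6 ± 4.30 CPM per kb in PM and 8.43 ± 0.244 in Vehicle. The 4 genes with the highest levels per kb were those in which the groups did not overlap. The order uses PM levels, which were the higher ones for these 4 genes, and length, which went with fold change. It is therefore not a separate result. In Vehicle libraries Flt1 had 7.84 ± 0.575 CPM per kb, near Slco1a4, and its 54.1 CPM was the highest Vehicle mean of the members before division by length. Flt1, Pecam1, Abcb1a, Tek, Cdh5 and Kdr followed with 6.52, 5.65, 4.27, 3.52, 3.25 and 1.92 CPM per kb in PM. Neighbours in this order differed by less than the sum of their SDs, apart from Itm2a against Slco1a4 and Slco1a4 against Flt1.

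Libraries differed in the members as a group. Summed over the members, PM libraries had 346.7, 265.3, 253.1, 293.0, 423.2 and 301.9 CPM, against 221.3, 196.1, 219.3, 210.0 and 191.8 CPM in Vehicle libraries. All PM sums were above all Vehicle sums, but this rested on the 4 members whose groups did not overlap. The other 6 members summed to 81.5 to 183 CPM in PM, against 116 to 142 CPM in Vehicle, with PM replicates 2 and 3 below every Vehicle library. PM replicate 5 was the highest PM library in 9 of the 10 members, and PM replicate 3 the lowest in 7. The coefficient of variation had a median of 28.0% in PM and 10.5% in Vehicle, and was larger in PM for 9 of the 10 members.

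Set against Pecam1 in the same library, members moved in both directions. The ratio of Cldn5 to Pecam1 counts was 2.21 to 3.03 in PM and 0.717 to 1.11 in Vehicle, the PM mean being 2.8999 times the Vehicle mean. For Itm2a the ratios were 1.99 to 3.79 in PM and 1.11 to 1.46 in Vehicle, and for Ly6c1 1.61 to 2.25 and 0.657 to 1.14. Flt1 had 1.80 to 2.74 counts per Pecam1 count in PM and 3.23 to 4.07 in Vehicle, and Kdr 0.411 to 0.660 in PM and 0.768 to 1.04 in Vehicle, both without overlap and lower in PM. Slco1a4, Cdh5, Tek and Abcb1a overlapped. These ratios were chosen after values had been seen, carry no test, were formed for the members only, and include the length dependence described above. Pecam1 was itself higher in PM, at a log2 fold change of 0.33 (edgeR adjusted p = 0.04757). With the trend removed Flt1, Kdr and Pecam1 had like log2 fold changes, at 0.37, 0.35 and 0.36.

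**Figure D4:**
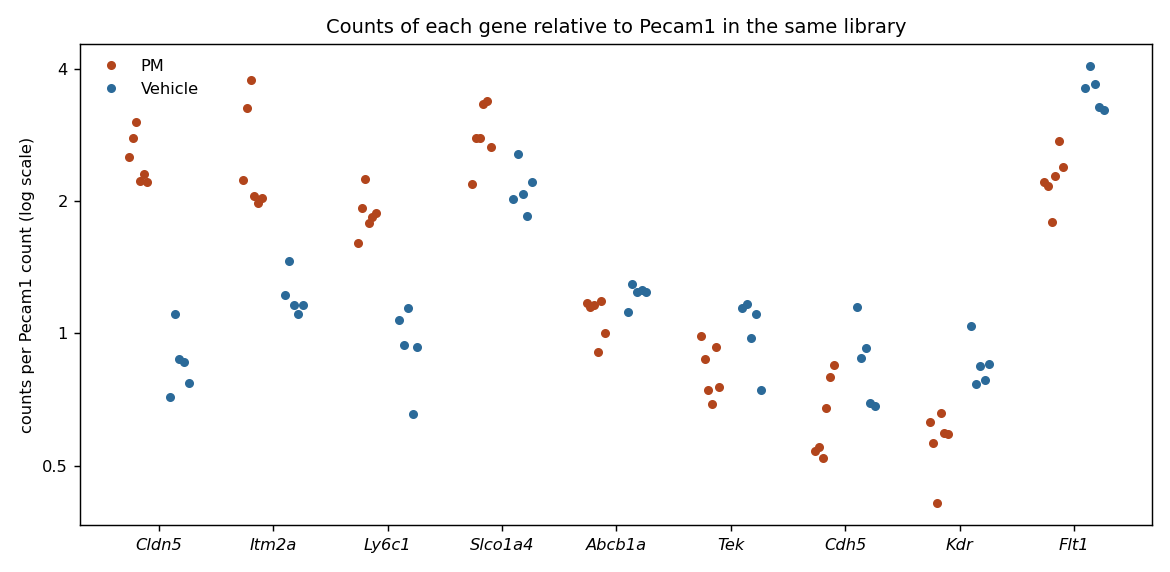
Counts of each member per Pecam1 count in the same library (log scale), PM left and Vehicle right of each pair. Cldn5, Itm2a and Ly6c1 lie above the Vehicle range in PM libraries, and Flt1 and Kdr lie below it.

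Other endothelial identity genes mostly moved as the higher members did. Of 20 such genes, 17 were higher in PM, 2 lower and 1 did not pass, against 32.7% higher and 36.4% lower of all tested genes. Their median log2 fold change was 0.88. With the trend removed 17 were higher and 0 lower, against 37.0% and 27.2%. In set 1, 11 were higher and 2 lower (32.1% and 38.9% of all tested genes), and in set 2, 16 and 0 (32.3% and 32.5%). Egfl7, which encodes a protein secreted by endothelial cells, averaged 37.8 ± 9.29 CPM in PM and 12.3 ± 0.445 in Vehicle (log2 fold change 1.53, SE 0.12, edgeR adjusted p = 8.162e-08; 0.91 with the trend removed). Ly6a, which encodes the Sca-1 surface antigen, averaged 25.6 ± 5.35 CPM in PM and 6.30 ± 1.15 in Vehicle (2.00, SE 0.16, adjusted p = 1.344e-07). The 2 lower genes were Ptprb, an endothelial receptor phosphatase gene, at -0.64 (adjusted p = 0.004282), and Cd93, at -0.62 (adjusted p = 0.01611); both have long transcripts. With the trend removed, Ptprb was 0.75 (adjusted p = 0.0003395) and Cd93 0.22 (0.325), so neither kept its direction.

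Ligands, transcription factors and junction partners were mixed, as were all tested genes, with 32.7% higher and 36.4% lower (37.0% and 27.2% with the trend removed). Among 12 tested VEGF and angiopoietin ligand and co-receptor genes, 4 were higher, 4 lower and 4 did not pass (2 higher and 3 lower with the trend removed). Angpt2, which encodes the angiopoietin that opposes Tek signalling, averaged 1.67 ± 0.343 CPM in PM and 7.76 ± 1.22 in Vehicle (log2 fold change -2.25, SE 0.17, adjusted p = 9.929e-08; -2.03 with the trend removed). Nrp2, a VEGF co-receptor gene, averaged 45.9 ± 11.4 CPM in PM and 119 ± 5.67 in Vehicle (-1.37, adjusted p = 1.675e-06; -0.75 with the trend removed). Vegfb was higher, at 0.82 (adjusted p = 6.181e-06), but 0.12 with the trend removed (0.356). Among 14 endothelial transcription factor genes 5 were higher and 2 lower (4 and 2 with the trend removed). Klf4 and Klf2, genes of factors induced by blood flow, were higher at 1.08 (adjusted p = 0.000911) and 0.84 (adjusted p = 0.001352; 0.13 with the trend removed, adjusted p = 0.468). Of the 4 ETS factor genes in this list Erg was higher at 0.70 (adjusted p = 0.0043), and 3 did not pass: Fli1 at -0.38 (0.0892), Ets2 at -0.20 (0.0551) and Ets1 at 0.020 (0.895). With the trend removed Erg, at 0.65 (edgeR adjusted p = 0.00462), and Ets1, at 0.58 (0.000494), were higher in PM. Fli1, at -0.12 (0.626), and Ets2, at -0.23 (0.0668), did not pass. In set 1 Fli1 was lower, at -0.64 (adjusted p = 0.01847), and in set 2 Ets2 was lower, at -0.36 (adjusted p = 0.009057).

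Of 13 junction protein genes 3 were higher, 3 lower and 7 did not pass (4 higher and 4 lower with the trend removed). Over all tested genes the shares were 32.7% higher and 36.4% lower (37.0% and 27.2% with the trend removed). Tjp1, the scaffold that ties claudins to actin, averaged 85.5 ± 6.32 CPM in PM and 202 ± 12.0 in Vehicle (log2 fold change -1.24, SE 0.08, adjusted p = 1.504e-08; -0.32 with the trend removed, adjusted p = 0.0016). Ocln, which encodes occludin, averaged 11.2 ± 2.30 CPM in PM and 8.12 ± 0.426 in Vehicle (0.49, adjusted p = 0.005231; 1.003 with the trend removed). Of 17 tested barrier transporter and receptor genes 7 were higher, 3 lower and 7 did not pass (6 higher and 2 lower with the trend removed). Bsg, whose product basigin marks brain endothelium and accompanies lactate carriers, averaged 497 ± 28.7 CPM in PM and 210 ± 13.8 in Vehicle (1.23, SE 0.07, adjusted p = 1.069e-08; 0.58 with the trend removed). Slc16a1, a lactate carrier gene, was higher at 0.73 (adjusted p = 0.0003944; 1.32 with the trend removed), and the glucose carrier gene Slc2a1 at 0.48 (adjusted p = 0.003629; 0.20 with the trend removed, adjusted p = 0.0576). Insr was lower, at -1.05 (adjusted p = 4.654e-07), but 0.15 with the trend removed (0.114).

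Of 14 Wnt signalling genes 3 were higher, 6 lower and 5 did not pass (4 higher and 2 lower with the trend removed). The shares of all tested genes were again 32.7% higher and 36.4% lower (37.0% and 27.2% with the trend removed). Lrp6, the Wnt co-receptor gene, averaged 45.6 ± 5.39 CPM in PM and 136 ± 8.18 in Vehicle (log2 fold change -1.58, SE 0.09, adjusted p = 7.332e-09; -0.35 with the trend removed). Fzd4, the frizzled receptor gene of barrier endothelium, was lower at -1.07 (adjusted p = 0.001302), but -0.22 with the trend removed (0.424). Of 10 basement membrane genes 1 was higher and 4 lower (4 and 3 with the trend removed), and of 5 tested activation genes 1 was higher and 2 lower. The plot of the vascular lists sets these beside the members.

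**Figure D5:**
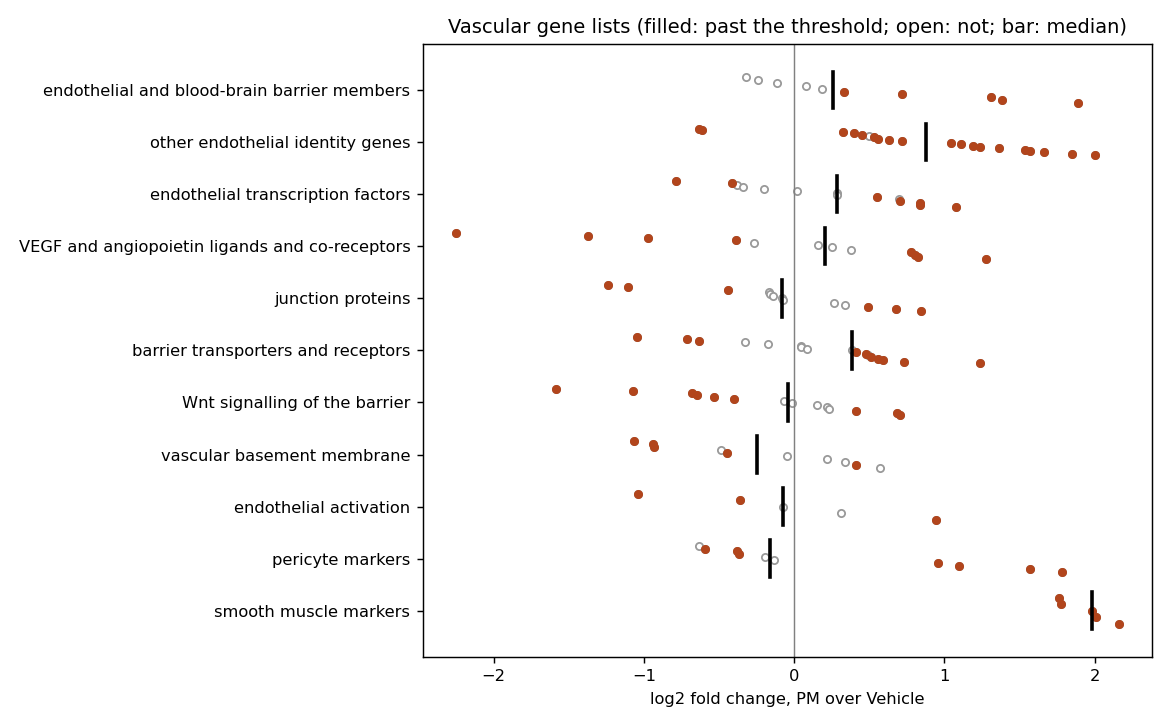
Log2 fold change of PM over Vehicle for each tested gene of the members and of the vascular lists, filled where the gene passed the test and open where it did not, with a bar at each list's median. The members' median is 0.26, against 0.88 for the other endothelial identity genes and 1.98 for smooth muscle markers.

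Markers of other cell types moved with the group as well, and their part in the members' values was not tested. Their counts stand against 32.7% higher and 36.4% lower among all tested genes (37.0% and 27.2% with the trend removed). All 5 tested smooth muscle markers were higher in PM, with a median log2 fold change of 1.98, and summed to 62.4 to 163 CPM in PM and 18.7 to 29.9 CPM in Vehicle. Of 10 pericyte markers, 4 were higher and 3 lower in PM (5 and 1 with the trend removed). Among 8 microglia markers 6 were higher, with sums of 264 to 390.01 CPM in PM and 195 to 221 CPM in Vehicle. Choroid plexus markers summed to 33.4 to 2507 CPM in PM and 73.0 to 1265 CPM in Vehicle, with the highest sums in PM replicates 1 and 3 and Vehicle replicate 5. PM replicate 1, among the 2 highest PM libraries in 8 of the 10 members, had 1213 CPM of these markers, and PM replicate 5, the highest in 9, had 59.3 CPM. PM replicate 5 was also the highest library for the smooth muscle sum, at 163 CPM, and for the pericyte sum, at 252 CPM. Of 8 neuron markers 2 were higher and 4 lower, and of 8 astrocyte markers 4 were higher and 2 lower (6 and 0 with the trend removed). The astrocyte markers nevertheless summed to 3642 to 6527 CPM in PM, against 7206 to 7628 CPM in Vehicle, lower in every PM library. Among 8 oligodendrocyte markers 5 were higher and 0 lower (6 and 1 with the trend removed). Of the tested perivascular macrophage markers 0 of 3 were higher and 1 lower (0 and 0 with the trend removed). Of the fibroblast markers 2 of 7 were higher and 2 lower (1 and 0 with the trend removed). Only 2 of 10 blood markers were tested, and both were lower in PM (1 with the trend removed). Of 3 pituitary markers 2 were higher and 1 lower. The counts given for smooth muscle, microglia, neuron and pituitary markers were the same with the trend removed.

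The genes with profiles most like each member's were found by the root mean square difference of centred log2 CPM over the 11 libraries, among 11739 genes. For Kdr the nearest was Flt1 (0.181), and for Tek it was Abcb1a (0.203). For Abcb1a it was Pecam1 (0.145), so for Kdr, Tek and Abcb1a only the nearest gene was another member. Flt1 and Cdh5 shared Adgrf5 as nearest gene (0.129 and 0.167). Cldn5 was nearest to Ttc9b (0.146), and its nearest member, Itm2a, ranked 190 among all genes (0.315). Itm2a was nearest to Btbd17 (0.0842), Ly6c1 to Rasip1 (0.146), Slco1a4 to Sart3 (0.109) and Pecam1 to Ephb3 (0.121). The nearest member ranked 985 for Itm2a, 732 for Slco1a4, 293 for Ly6c1, 74 for Cdh5, 13 for Flt1 and 8 for Pecam1.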

How the data were processed

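Each library's file holds 1 raw count per gene symbol, not normalized, as deposited by the authors. Per the submitters' processing notes, the tools were FastQC 0.11.9, Trimmomatic 0.36, STAR, SAMtools 1.9, HTSeq 0.9.1 and Picard 2.9.2, with builds mm10 and hg19 named without a role. Ribosomal RNA was depleted per the labels' protocols, while their molecule field names polyA RNA. Strand setting and annotation are not given in the sources used here. Reads of overlapping antisense genes, such as Gm29682 over Cdh5, therefore cannot be told apart; Gm29682 had 0 counts. Counts that name no gene stayed out of library sizes; 3 counts, the limit a count of 0 allows, equal 0.169 to 0.499 CPM per library, which covers counting error only.

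Counts were analysed here with edgeR 4.0.16 (limma 3.58.1, R 4.3.3): filterByExpr with a count minimum of 10, TMM scaling, glmQLFit and glmQLFTest with group and deposit set, Benjamini-Hochberg adjustment over 14982 genes and a threshold of 0.05. Effects per set and their difference came from an interaction fit over all libraries. CPM values are scaled by TMM. Lengths, GC content and positions came from GENCODE M21 (GRCm38), to which 95.7% of symbols matched. The length and GC trend was removed from the counts' offsets. No pair of libraries agreed within sampling noise (lowest chi-square per degree of freedom 2.009), so none was merged. The code was tested on simulated data. Alternatives were DESeq2 1.42.0 (size factors and Wald test), upper quartile scaling, no filter, no set covariate, a replicate block, each set alone, the trend removed, Rn45s, Lars2 and Mir6236 left out, near-identical copies summed, and each library left out. The members and lists were chosen with earlier results of these data known. Named were the members, up to 4 genes of smallest p per list, and the nearest genes by profile; Ptprb, Cd93, Ocln, Slc2a1, Eng, Plvap, Fli1, Ets1, Ets2, Col4a1 and Col4a2 were named after their values were seen.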

Additional observations from a re-analysis of the deposited data

Results flagged for a closer look

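The log2 fold change of PM over Vehicle for Cdh5 differed between the deposit sets, by an interaction test across all genes. That test called such a difference for 29.6% of all tested genes. The log2 fold change was 1.22 higher in the second set than in the first (edgeR adjusted p = 0.01374), at -0.62 in set 1 and 0.60 in set 2. In the first set the PM libraries had 12.4, 8.57 and 7.52 CPM, against 18.0, 11.3 and 14.6 CPM in Vehicle libraries. In the second set the PM libraries had 12.7, 20.1 and 16.6 CPM, against 11.6 and 10.2 CPM in Vehicle libraries. The adjusted p was 0.08607 without Vehicle replicate 5. Y-linked genes had counts in all first-set Vehicle libraries and in neither second-set one, whereas both sets of PM libraries were mixed, so set and sex cannot be told apart in the Vehicle group.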

How the results depend on the processing

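Members higher in PM, 5 in all, numbered 8 with the length and GC trend removed, 6 in the second set alone (Cdh5 added, adjusted p = 0.02016) and 4 to 5 with libraries left out in turn. Among all genes 4904 of 14982 were higher in the main fit, 5343 of 14424 with the trend removed and 5043 of 15183 in the second set alone. Members lower, 0 in all, numbered 2 in the first set alone (Flt1 and Cdh5) and 0 to 1 with libraries left out in turn. In the first set alone 5259 of 15031 genes were lower. Members whose effect differed between sets, 1 in all, numbered 2 with the trend removed (Cdh5 and Slco1a4). With libraries left out in turn they numbered 0 to 4. There were 0 without Vehicle replicate 5, and 4 without PM replicate 1 (Cdh5, Flt1, Kdr and Slco1a4). Differences between sets were called for 29.6% of all tested genes in the main fit. Without PM replicate 1, 3151 of 14843 genes had a higher and 2461 a lower effect in the second set. Without Vehicle replicate 5 these were 1653 and 747 of 15097. Cldn5, Itm2a, Ly6c1 and Slco1a4 kept their direction and call in each alternative run. The median of all genes moved by 0.13 (log2) with the trend removed and by 0.10 with Rn45s, Lars2 and Mir6236 left out.

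Directions that turned were those of Flt1 (0.062 in the second set alone, 0.37 with the trend removed), Kdr (0.024 and 0.35), Cdh5 (0.61 in the second set alone; -0.30 to 0.049 with libraries left out) and Tek (-0.10 to 0.20 with libraries left out). With the trend removed Jam2 was 0.030, Insr 0.15, Wnt7b -0.046, Plvap -0.39, Ptprb 0.75 and Cd93 0.22. Ackr1 was 0.021 in the second set alone, and Col4a1 was -0.35 and Col4a2 -0.68 in the first (Col4a2 -0.14 to 0.51 with libraries left out). Apart from what each alternative itself changes, the cause was not tested.

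Replicate numbers are shared by the groups, but same-numbered libraries did not deviate together (correlations across genes -0.176 to -0.00501), so the numbers do not pair them. With the replicate number as a block 4 members were higher, Pecam1 having an adjusted p of 0.0822, and 4318 genes were higher and 4890 lower. Depth was lowest for Ly6c1, Cdh5 and Kdr, with 67, 71 and 80 counts in the lowest Vehicle library of each.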

Other observations

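Some vascular genes beyond the members also differed between deposit sets, as did 29.6% of all tested genes. Of those given here, Col4a1, Col4a2 and Eng were picked after their values were seen. Col4a1 and Col4a2, which encode the main collagen chains of the vascular basement membrane, did not pass over all libraries, at log2 fold changes of 0.34 (edgeR adjusted p = 0.3852) and 0.22 (0.6648). Col4a2 had 53.9, 25.7 and 23.8 CPM in first-set PM libraries, against 62.2, 53.2 and 61.7 CPM in first-set Vehicle libraries. It had 181, 133 and 163 CPM in second-set PM libraries, against 50.3 and 54.8 CPM in second-set Vehicle libraries. All second-set PM libraries thus lay above every Vehicle library, and 2 of the 3 first-set PM libraries lay below every one, with a difference in log2 fold change between sets of 2.37 (SE 0.42, adjusted p = 0.002675). For Col4a1 the difference was 1.84 (SE 0.37, adjusted p = 0.004166).

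Eng encodes an endothelial co-receptor of TGF-beta family ligands, and Sox17 is an arterial transcription factor gene. In the second set both were higher in PM, at log2 fold changes of 1.31 (Eng, edgeR adjusted p = 0.0002351) and 1.76 (Sox17, 2.167e-05). In the first set the values were -0.08 (0.7287) and 0.13 (0.6224). Sox17 had 12.2, 18.2 and 10.6 CPM in second-set PM libraries, against 3.60 and 4.395 CPM in second-set Vehicle libraries. In the first set it had 4.86, 4.31 and 3.44 CPM in PM, against 4.04, 3.44 and 4.07 CPM in Vehicle. The difference in log2 fold change between sets was 1.63 for Sox17 (adjusted p = 0.003038) and 1.39 for Eng (adjusted p = 0.004606). For these 4 genes too, set and sex cannot be told apart in the Vehicle group.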
